A study of Rattus norvegicus with 8 samples.

Results

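Genes of the cilium, its axonemal dyneins and its transport machinery were measured in the hypothalamus of female and male rats. Members were taken by gene name: the dynein chains Dnah, Dnai and Dnal, the tektins Tekt, the radial spoke genes Rsph, the sperm-associated antigens Spag, the intraflagellar transport genes Ift, the Bardet-Biedl genes Bbs, the outer dense fibre genes Odf, and the genes Foxj1, Dynlrb2 and Tmem212. The arrays carried 70 such probes for 61 genes, of 19204 named genes in all, on 115 spots. No probe carried the array name Tmem212, and the probe that RefSeq now assigns to that gene is described with the renamed probes. By role, 27 members belong to the motile axoneme or its regulator, 17 to intraflagellar transport and the Bardet-Biedl group, and 17 are other Spag and Odf genes.

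The study set 4 female Sprague Dawley rats in estrus against 4 males of the same strain, all 3 to 4 months old and housed individually. Total RNA of the hypothalamus of 1 female and 1 male was hybridised to each of 4 two-colour Agilent arrays of 60-base probes on 1 slide. Females 1 and 3 and males 2 and 4 carried the dye Cy3, and females 2 and 4 and males 1 and 3 carried Cy5. Every female was in estrus and no female at another stage was measured, so sex and cycle stage cannot be told apart.

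A cilium is a microtubule-based projection of the cell surface. In motile cilia, outer and inner arms built from axonemal dynein chains drive bending, radial spokes and the central apparatus regulate it, and tektins lie along the doublet microtubules. Intraflagellar transport carries cargo along the axoneme: the IFT-B complex travels with kinesin toward the tip, the IFT-A complex returns with dynein 2, and the BBSome links membrane proteins to the moving trains. In the hypothalamus the ependymal cells that line the third ventricle bear many motile cilia, while most neurons carry a single primary cilium without dynein arms. Many Spag and Odf genes take their names from sperm and have other or additional functions.

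The probes of 4 genes named in the results are shown, since each value is a reading of such a stretch. Differences between the probes of a gene were not tested. The array design placed them on the rat build rn4. Dynlrb2, a roadblock-type dynein light chain, was read by a probe at chr19:46547025-46547799, minus strand, which spans 775 bases of genome, and by a probe at chr19:46547791-46547850, minus strand. Capitals mark the 9 bases that both Dynlrb2 probes hold.
Dynlrb2 A_44_P220325: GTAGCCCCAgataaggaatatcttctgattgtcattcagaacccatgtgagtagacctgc
Dynlrb2 A_64_P020711: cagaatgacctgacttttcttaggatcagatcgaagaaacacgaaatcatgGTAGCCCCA
The probe of Odf3b, the outer dense fibre family member with the highest sex ratio, lies at chr7:127671982-127672041, minus strand.
Odf3b A_64_P138430: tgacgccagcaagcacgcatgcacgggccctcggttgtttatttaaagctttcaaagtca
The Ift52 and Spag6 probe pairs gave ratios of opposite sign, and the longest run the probes of a gene share is 5 bases for Ift52 and 6 for Spag6. The Ift52 probes lie on the plus strand at chr3:153903568-153905979, which spans 2412 bases, and chr3:153917476-153917535.
Ift52 A_43_P18817: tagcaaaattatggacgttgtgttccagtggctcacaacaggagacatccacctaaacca
Ift52 A_64_P157899: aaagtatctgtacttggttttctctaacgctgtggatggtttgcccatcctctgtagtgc
The Spag6 probes lie on the plus strand at chr11:86252607-86252666 and chr11:86321273-86321332. RefSeq now calls the gene they match Spag6l, and the array's Spag6l probe matches what is now called Spag6.
Spag6 A_43_P18519: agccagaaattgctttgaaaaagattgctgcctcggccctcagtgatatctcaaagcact
Spag6 A_64_P094910: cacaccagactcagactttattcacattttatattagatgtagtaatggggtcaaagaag

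Promoters of cilia genes are known for the X-box, a motif bound by RFX transcription factors. Promoter windows from 250 bases before to 50 after the start were matched for 46 members in RefSeq's GRCr8 table and searched on both strands. The shortened motif GTTGCCA stood in 10 of the 46 windows (21.74%), against 4.56% of all 33469 windows. The longer GTTGCCATG, which contains it, stood in 2 members (4.35%) and in 0.74% of all windows, and the full palindromic X-box in 0 members and 0.14% of all windows. Of the members with a match ahead of the start, 5 are shown, with the matched letters in capitals. They were chosen after the matches were seen. The stretches lie at chr7:122326953-122326999 (minus strand, match 58 bases before the start), chr10:57479134-57479180 (minus, 39 before), chr10:54766045-54766091 (minus, 45 before), chr15:35688932-35688978 (plus, 35 before) and chr12:39618603-39618632 (plus, matches on both strands).
Odf3b: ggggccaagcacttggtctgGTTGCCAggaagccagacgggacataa
Tekt1: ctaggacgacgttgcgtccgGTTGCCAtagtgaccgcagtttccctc
Dnah2: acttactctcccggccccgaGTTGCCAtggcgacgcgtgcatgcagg
Ift88: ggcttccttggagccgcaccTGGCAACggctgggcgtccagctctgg
Ift81: cactgcaTGGCAACcGTTGCCAaggagcgg
The log2 sex ratios of these 5 genes had both signs, and a match of letters is not a measured binding site.

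Before the results, male 2 has to be set apart. Against the mean of the other 3 Cy3 samples, the 15 hypothalamic marker genes were lower in male 2 by a median log2 difference of -2.91, and male 2 was the lowest Cy3 sample for all 15. The thyrotropin-releasing hormone gene Trh had a log2 level of 8.30 in male 2 and of 11.73 to 12.11 in the other Cy3 samples. Of the 10 tested markers of cortex, hippocampus and striatum, male 2 was the highest Cy3 sample for 9, and the median difference was 2.29. The exception was Rgs9, at 10.56 in male 2 against 11.26 to 11.65. Neurod6, a transcription factor of cortical neurons, read 13.89 in male 2 against 7.25 to 8.31. In female 2, on the same array, Neurod6 read 11.94, against 8.14 to 9.05 in the other Cy5 samples. Male 2 thus goes against its tissue label, and the main results are given with and without array 2, which holds male 2 and female 2. In a fit without array 2, array 4 is the only array with the female in Cy5. Since the fit holds a term for the dye, array 4 then weighs as much as arrays 1 and 3 together. Male 4 differed in another way, with Ttr, the transthyretin gene of the choroid plexus, at 16.50 against 11.02 to 13.78 in the other Cy3 samples.

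Of the 70 member probes, 60 probes for 53 genes entered the test, and all 60 were well above background in all 8 samples. The other 10 probes were too dim: Dnah7, Spag11b, Odf1 and the second probe of Odf2l were above background in no sample. Odf3, Odf3l1 and Odf4 were above it in the 4 Cy3 samples and in no Cy5 sample, and Odf3l2 in 3 Cy3 samples and 1 Cy5 sample. The second probe of Dnah10 passed in 2 Cy3 samples and the Spag6l probe in 1. Odf1 encodes a protein of the sperm tail. Of 6 germ cell markers of the testis on the array, only Prm1, a protamine gene, was bright enough to be tested.

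No member probe reached an adjusted p under 0.05 between females and males, in limma with Benjamini-Hochberg adjustment over all 21995 probes. The share of all probes called was 0%, and the lowest adjusted p, shared by many probes, was 0.555. At an unadjusted p under 0.05, 10 of the 60 member probes (16.7%) were higher in females, against 4.98% of all probes, and 2 (3.33%) were higher in males, against 3.52%. In either direction these are 12 probes, against 8.5% of all. The ratio was above 0 for 45 of the 60 probes, against 56.1% of all probes. By gene, taking the brightest tested probe, 40 of 53 ratios were above 0, against 56.2% of all genes, with a median log2 ratio of female over male of 0.11, while the median over all 14603 genes tested was 0.02. Without array 2, 37 of 51 genes were above 0, against 57.9% of all genes in that fit, with a median of 0.06. In that fit 6 of 58 member probes had an unadjusted p under 0.05 (5 of them higher in females), against 7.99% of all probes in either direction. The count was 3 without array 1, 3 without array 3 and 27 without array 4, against 4.03%, 1.84% and 29.6% of all probes. Without array 4, 4 member probes also passed an adjusted p under 0.05 (limma), against 6.78% of all probes: those of Rsph9, Dnah11 and Odf3b and the second of Dynlrb2. Of the ratios on single arrays, 6 members were above 0 on all 4 arrays (Dnah1, Tekt2, Rsph9, Odf3b, Ift172 and Bbs12) and 2 below 0 on all 4 (Dnah5 and Ift80), of 51 with 4 values. The shares over all genes were 5.06% and 5.55%. The ratio was largest on array 2 for 25 of the 51 members, against 29.1% of all genes.

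**Figure D1:**
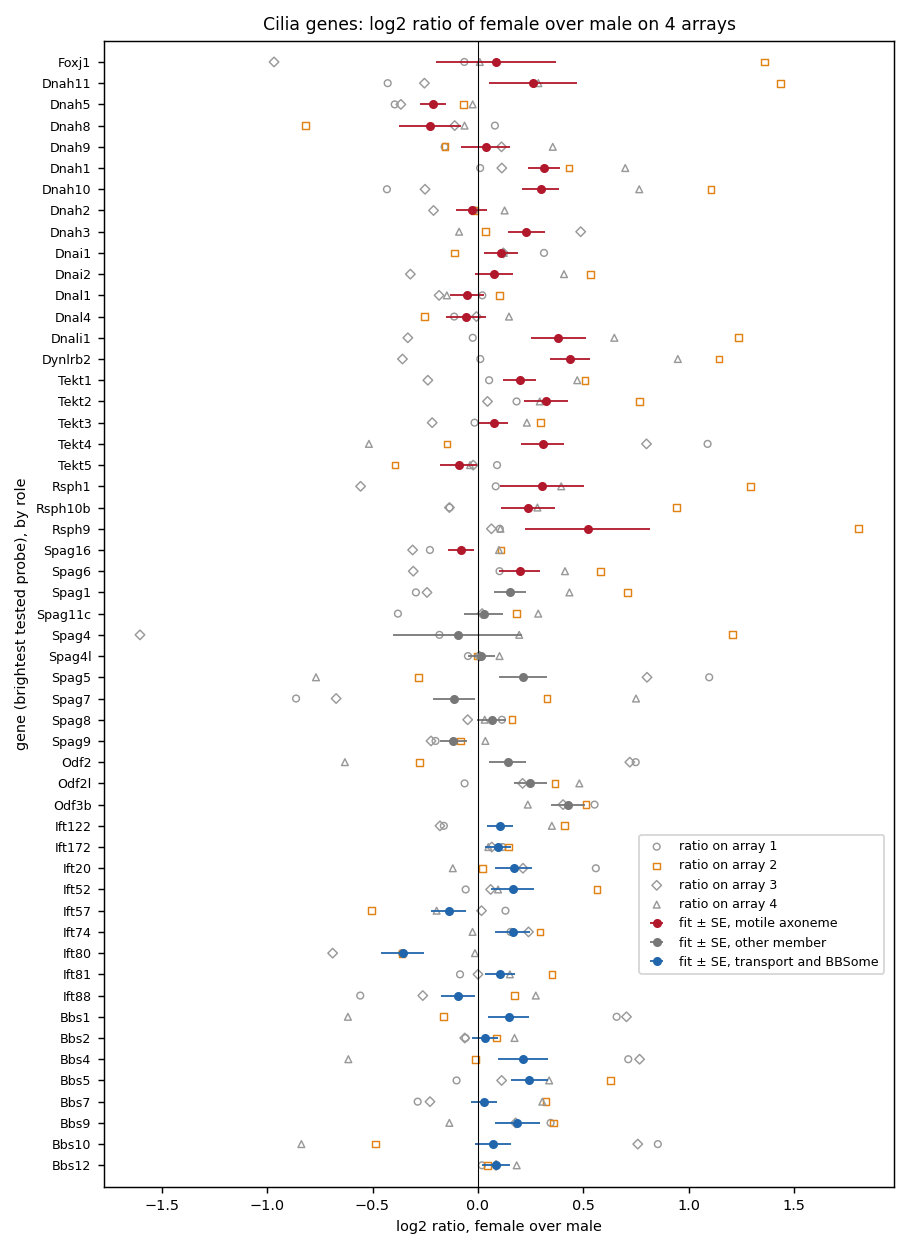
Log2 ratio of female over male (x axis) of the 53 tested member genes (y axis, grouped by role, brightest tested probe). Filled points with bars are the fitted ratio ± SE, coloured by class, and open symbols are the ratio on each of the 4 arrays. Most fitted ratios lie right of 0 (40 of 53), the open squares of array 2 reach furthest right (1.81 for Rsph9), and no gene passes the adjusted threshold.

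Foxj1 encodes the transcription factor that switches on the motile cilia program. Its log2 level was 10.81 in female 1, 9.94 in female 3, 9.34 in male 2 and 10.40 in male 4 with Cy3, and 10.70 in female 2, 10.40 in female 4, 10.88 in male 1 and 10.91 in male 3 with Cy5. With Cy3 the sexes overlapped, and with Cy5 both males lay above both females. The ratios on the 4 arrays were -0.06, 1.36, -0.97 and 0.01, and the fitted log2 ratio was 0.08 ± 0.29 (SE, 4 arrays; adjusted p = 0.908, limma). Without array 2 it was -0.25. Spag4, a SUN-domain protein of the nuclear envelope, had a similarly wide range over arrays, from -1.60 on array 3 to 1.21 on array 2.

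Among the dynein genes, Dynlrb2 had the highest ratio. It read 12.07 in female 1 and 11.57 in female 3, against 10.63 in male 2 and 10.89 in male 4, with its brighter probe and Cy3. With Cy5 the same probe read 11.78 in female 2 and 11.84 in female 4, against 12.06 in male 1 and 11.93 in male 3. Females were thus higher among the Cy3 samples and lower among the Cy5 samples, with no overlap in either. The fitted log2 ratio was 0.44 ± 0.09 (SE), a 1.35-fold difference, with an unadjusted p of 0.0083 and an adjusted p of 0.555 (limma). The second Dynlrb2 probe gave 0.39 ± 0.07, with ratios above 0 on all 4 arrays, and the brighter probe gave 0.39 without array 2.

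Dnah1, an inner arm dynein heavy chain, read 9.36 and 9.49 in females 1 and 3 against 8.67 and 8.93 in males 2 and 4. With Cy5 it read 9.10 and 9.63 in females 2 and 4 against 9.35 and 9.38 in males 1 and 3, so the sexes separated with Cy3 and overlapped with Cy5. Its fitted log2 ratio was 0.31 ± 0.08 (SE; unadjusted p = 0.014), and 0.38 without array 2. Dnah10, another inner arm heavy chain, had a ratio of 0.30 ± 0.09, made up of 1.11 on array 2, 0.77 on array 4, -0.43 on array 1 and -0.25 on array 3. The sign of Dnah10 followed the dye of the female, and without array 2 the ratio was 0.21. Dnali1, an inner arm light intermediate chain, had a ratio of 0.38 ± 0.13 with 1.24 on array 2, and of 0.23 without that array. Of the 4 tested inner arm heavy chains, 3 had ratios above 0, with a median of 0.26. Dnah2, the exception, read -0.03.

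Of the 4 outer arm heavy chains, Dnah11 and Dnah9 had ratios above 0 and Dnah5 and Dnah8 below 0. Dnah5 read 7.43 and 7.25 in females 1 and 3 against 7.22 in both Cy3 males, and 7.15 and 7.19 in females 2 and 4 against 7.82 and 7.62 in males 1 and 3. The males were the higher sex with Cy5 and the lower with Cy3. Its ratio was -0.21 ± 0.06 (SE; unadjusted p = 0.0228), below 0 on all 4 arrays, and -0.20 without array 2. On arrays 1 to 4 the Dnah5 ratios were -0.39, -0.07, -0.37 and -0.02. Dnah8 read 8.82 in male 2 against 7.45 to 8.04 in the other Cy3 samples, the widest excess of male 2 over the other Cy3 samples among the members. Its ratio was -0.23 ± 0.15, and -0.04 without array 2. Dnah11 had 0.26 ± 0.21, and -0.03 without array 2. Dnah9 had 0.04 ± 0.12, and 0.17 without array 2. The intermediate chains of the outer arm, Dnai1 and Dnai2, had ratios of 0.11 ± 0.08 and 0.08 ± 0.09, and the light chains Dnal1 and Dnal4 of -0.05 ± 0.08 and -0.06 ± 0.09.

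All 3 radial spoke genes and 4 of the 5 tektins had ratios above 0. Rsph9, a protein of the spoke head, read 10.60 in male 2 and between 11.96 and 12.41 in the other 7 samples. Its fitted ratio of 0.52 ± 0.30 (SE) was the highest of the members, and it rested on array 2: the ratios were 0.10, 1.81, 0.06 and 0.11 on arrays 1 to 4. Rsph10b had 0.24 ± 0.13, and 0.07 without array 2. Tekt2 read 10.24 and 10.13 in females 1 and 3, 8.84 in male 2 and 9.53 in male 4, and 9.61 and 9.83 in females 2 and 4 against 10.06 and 10.08 in males 1 and 3. As with Dynlrb2, females were above males with Cy3 and below them with Cy5. The ratio of Tekt2 was 0.32 ± 0.10 (SE; unadjusted p = 0.0335), and 0.20 without array 2. Tekt1 had 0.20 ± 0.08, and 0.19 without array 2.

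Tekt4 read 10.12 and 9.93 in females 1 and 3 against 9.29 and 9.82 in males 2 and 4, and 9.14 and 9.30 in females 2 and 4 against 9.03 and 9.13 in males 1 and 3. The females were above the males within both dyes, although with Cy5 by as little as 0.01 between the closest samples. Its ratios ran from 1.09 on array 1 to -0.52 on array 4 and followed the dye, and the fitted ratio was 0.31 ± 0.10 (0.21 without array 2). In the central apparatus, Spag16 had -0.08 ± 0.06. The Spag6 probes differed in sign, with 0.20 ± 0.10 for the brighter and -0.11 ± 0.08 for the dimmer probe, and neither had an unadjusted p under 0.05. Over the 25 tested genes of the motile axoneme, 18 ratios were above 0 and the median was 0.20. The median was 0.11 when the probes of a gene were averaged, and also 0.11 with no filter on dim probes. Without array 2, 16 of 23 were above 0 and the median was 0.08. The medians on arrays 1 to 4 were 0.01, 0.43, -0.21 and 0.23.

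Of the 17 transport and Bardet-Biedl genes, 14 had ratios above 0, with a median of 0.10. Without array 2, 13 of 17 were above 0 and the median was 0.06. The difference from the motile axoneme genes was not tested. Ift80, an IFT-B subunit, had the lowest ratio of the members. It read 9.10 and 8.77 in females 1 and 3, 9.27 and 9.09 in males 2 and 4, 8.91 and 9.07 in females 2 and 4, and 9.46 in both Cy5 males. Males were higher without overlap with Cy5, and with Cy3 female 1 lay 0.01 above male 4. The ratio was -0.36 ± 0.10 (SE; unadjusted p = 0.0227), 0.78-fold, and -0.27 without array 2. The other IFT-B subunits with ratios below 0 were Ift57 (-0.14 ± 0.08) and Ift88 (-0.09 ± 0.08), and Ift81 had 0.10 ± 0.07.

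Ift52, also of IFT-B, had ratios of opposite sign from its probes. The brighter probe gave 12.62 in male 2 and 13.18 to 13.33 in the other 7 samples, with a ratio of 0.17 ± 0.10 (SE). The dimmer probe gave a ratio of -0.12 ± 0.08, and without array 2 the brighter probe gave 0.05. Ift122, the only IFT-A member, had 0.11 ± 0.06. For Ift172 and Ift20, both of IFT-B, females lay above males within both dyes, with ratios of 0.09 ± 0.06 and 0.17 ± 0.09.

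By the brightest probe, all 6 BBSome subunits measured had ratios above 0, from 0.03 to 0.24, with a median of 0.17. Without array 2 all 6 were above 0 by that probe, with a median of 0.06. The dimmer probes of Bbs1 and Bbs4 had ratios of 0.02 and 0.01. Without array 2 these 2 probes gave 0.09 and -0.20. Bbs5 was the highest with all arrays. It read 10.34 and 10.66 in females 1 and 3 against 10.23 and 10.34 in males 2 and 4, and 10.86 and 10.68 in females 2 and 4 against 10.44 and 10.55 in males 1 and 3. The females lay above the males with Cy5, and with Cy3 female 1 and male 4 had the same value. The ratio was 0.24 ± 0.09 (SE; unadjusted p = 0.0443), and 0.17 without array 2. Bbs12, which with Bbs10 belongs to the chaperonin-like proteins that assemble the BBSome, had 0.08 ± 0.07.

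Odf3b, now called Cimap1b for its place on ciliary microtubules, was above 0 on all 4 arrays. Its log2 level was 11.60 in female 1 and 11.37 in female 3 against 10.72 in male 2 and 11.09 in male 4, and 11.23 in female 2 and 11.32 in female 4 against 11.04 in male 1 and 10.97 in male 3. The sexes did not overlap within either dye, with females higher in both. The ratios on arrays 1 to 4 were 0.55, 0.51, 0.40 and 0.24, and the fitted ratio was 0.43 ± 0.08 (SE), 1.34-fold, with an unadjusted p of 0.0052 and an adjusted p of 0.555 (limma). Without array 2 the ratio was 0.36. Odf2l, a relative of the centrosomal protein gene Odf2, had 0.25 ± 0.08, or 0.28 without array 2.

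Of the remaining Spag genes, Spag1, an assembly factor for dynein arms, had 0.15 ± 0.08. Spag7 had -0.11 ± 0.10, and Spag9, a scaffold protein of the JNK pathway with no axonemal role, had -0.12 ± 0.06. Spag9 was the only member with males above females within both dyes (1 of 58 probes with 8 values, against 3.62% of all probes). Females were above males within both dyes for 5 of the 58 probes, against 5.32% of all probes, namely those of Tekt4, Odf3b, Ift172, Ift20 and the dimmer probe of Odf2.

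The low readings of male 2 recurred across the members. It was the lowest of the 4 Cy3 samples for 36 of 51 member genes, against 39.8% of all genes, for 16 of 23 motile axoneme genes and for 12 of 17 transport genes. The median difference of male 2 from the other Cy3 samples was -0.56 on the log2 scale for motile axoneme genes, -0.29 for transport genes and -0.02 for all genes tested. Exceptions, in which male 2 was the highest, were 8 of the 51, against 36.1% of all genes, among them Dnah8, Dnah9, Tekt5, Ift57, Ift80 and Ift88. In RNA of a whole tissue, fewer cells of a type and less RNA per cell cannot be told apart.

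**Figure D2:**
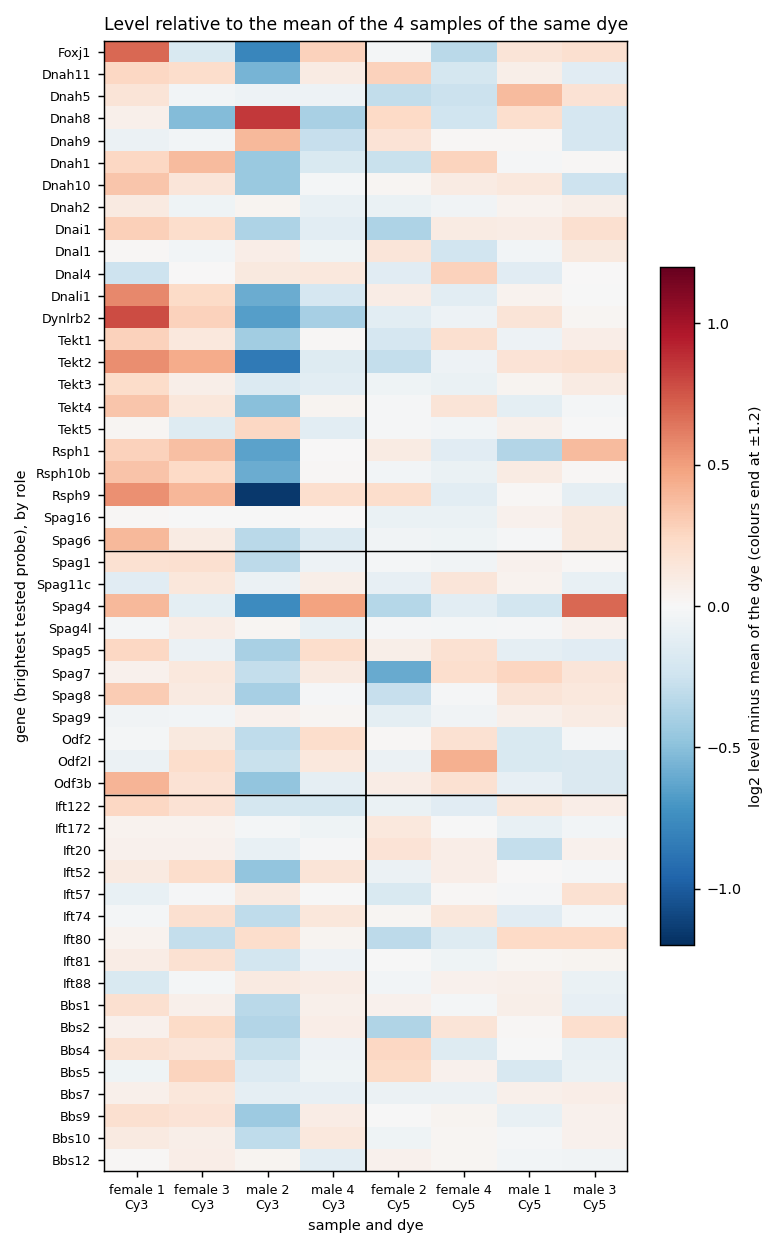
Log2 level of each member gene (rows, by role; lines part motile axoneme, other members, and transport genes) minus the mean of the 4 samples of the same dye, in the 8 samples (columns, Cy3 left and Cy5 right of the line). The 51 genes with a value in all samples are drawn. The column of male 2 is mostly blue (lowest for 36 of 51 genes), with Dnah8 as a red exception, and the Cy5 columns are pale.

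Sex differences were also taken within each dye. Among the Cy3 samples, the median log2 difference of the motile axoneme genes was 0.47 (18 of 23 above 0), and among the Cy5 samples it was -0.06 (7 of 23 above 0). With male 2 left out of the Cy3 samples, females 1 and 3 against male 4 gave 0.22 (21 of 23 above 0), where male 4 is then 1 sample. For the transport genes the medians were 0.20 with Cy3, 0.02 with Cy5 and 0.07 with Cy3 and without male 2. Over all members the 3 medians were 0.26 (42 of 51 above 0), -0.03 (22 of 51) and 0.12 (37 of 51). Over all genes tested they were 0.01, 0.04 and 0.003. Above 0 were 7427 of 14488 genes with Cy3 and 8389 of 14488 with Cy5. With Cy3 and without male 2, 7358 of the 14603 genes tested were above 0. Dye goes with different animals here, and the difference between the dyes was not tested.

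**Figure D3:**
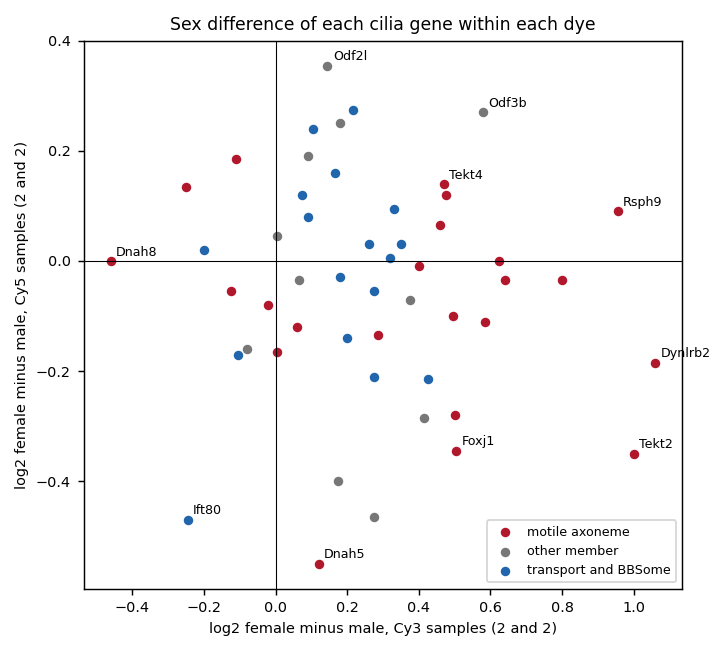
Log2 difference of female minus male for each member gene among the Cy3 samples (x axis, 2 females and 2 males) and among the Cy5 samples (y axis, 2 and 2), coloured by class. The motile axoneme genes spread to the right (median 0.47) but lie about 0 on the y axis (median -0.06), and Odf3b lies above 0 on both.

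The gene-specific dye term compares how a probe reads with Cy5 and with Cy3, across arrays of the 2 dye orientations. These arrays hold different animals, male 2 among them, so the term also takes in differences between animals. Over the hypothalamic markers its median was 0.71, with median ratios of 2.87 on array 2 and -0.27 on array 4. The dye term passed an adjusted p under 0.05 (limma) for 10 of the 60 member probes (16.7%), against 12.7% of all probes. Of these, 4 were brighter with Cy5, against 2.89% of all probes, namely Dynlrb2, Dnah10, Spag1 and Spag7. The other 6 were brighter with Cy3, against 9.82%, namely both Odf2 probes and those of Tekt4, Spag5, Bbs1 and Bbs10. The dye term of Dynlrb2 was 0.61 and that of Bbs10 was -0.73 (log2, Cy5 minus Cy3). Over member probes, ratios on arrays of the same dye orientation correlated at r = 0.75 (arrays 1 and 3) and 0.56 (arrays 2 and 4), and ratios on arrays of opposite orientation between -0.31 and -0.72. These correlations run across probes of shared arrays and describe the arrays only.

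Genes of the same pathway under other names had a median log2 ratio of 0.05, against 0.02 for all genes and 0.11 for members. Of 110 listed genes, 77 were tested and 49 ratios were above 0, against 56.2% of all genes. At an unadjusted p under 0.05 (limma), 6 were higher and 1 lower in females (5.01% and 3.51% of all genes). Without array 2, 51 of 76 (67.1%) were above 0, against 57.9% of all genes and 72.5% of members. The medians were then 0.05, 0.02 and 0.06. Other axoneme genes were above 0 in 20 of 26, led by Cfap43, a protein of the axoneme, at 0.43 ± 0.08 (SE). The 6 tested dynein assembly factors were all above 0, between 0.06 and 0.11. B9d1, of the transition zone at the ciliary base, had 0.25 ± 0.06. The genes of the primary cilium membrane were above 0 in 2 of 8, with a median of -0.10, and without array 2 in 5 of 8, with a median of 0.02.

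The arrays also carried 16 genes whose present names match the members but whose array names do not. Of these, 13 had ratios above 0 and the median was 0.09. The probes with the array names Rabl5, Hspb11, Ttc26 and Ttc30b are also counted among the pathway genes of other names above. Without array 2, 13 of 15 were above 0 and the median was 0.06. Tmem212, named for a transmembrane protein, had 0.33 ± 0.09 (SE; unadjusted p = 0.0188), made of 1.09 (array 1), -0.27 (array 2), 0.72 (array 3) and -0.25 (array 4). Its dye term was -0.58 with an adjusted p of 0.0323 (limma), brighter with Cy3.

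Markers of ciliated and neighbouring cells were set beside the members. Of 11 ependymal markers outside the member list, 8 had ratios above 0, with a median of 0.18, and none passed the adjusted threshold. Without array 2, 7 of 11 were above 0, with a median of 0.03. Ak7, Hydin, Tppp3 and Cfap126 are on this list and also among the other axoneme genes above, so the 2 lists are not separate. Ccdc153 had 0.26 ± 0.09 and Rarres2 0.31 ± 0.13. The log2 of the summed levels of the 11 ependymal markers was 14.99 to 15.62 in females and 14.20 to 15.26 in males. Tppp3, the brightest (13.05 to 14.77), weighs most in this sum. The sum was lowest in male 2, where 9 of the 11 were the lowest of the Cy3 samples with a median difference of -0.51. Of 12 tested choroid plexus markers, 2 were above 0, with a median of -0.22, Enpp2 at -0.34 ± 0.12 and Ttr at -1.79 ± 0.53. Without array 2, 0 of 11 were above 0, with a median of -0.26, in a fit that leans on array 4 with male 4. The choroid plexus medians on arrays 1 to 4 were -0.05, 0.11, -0.18 and -0.41. The log2 of the summed levels of the choroid plexus markers was 12.94 to 13.74 in females and 12.41 to 16.69 in males. It was highest in male 4, where Ttr alone read 16.50. Of 7 tanycyte markers 2 were above 0 (1 without array 2), with Crym at -0.73 ± 0.36 and Lhx2 at -1.06 ± 0.29. Both of these are also genes of the cortex, and both were highest in male 2. Lhx2 was below 0 on all 4 arrays, at -0.36, -2.01, -1.22 and -0.62 on arrays 1 to 4. Crym was above 0 on array 4 only (0.06). The hypothalamic markers were above 0 in 15 of 15, with a median of 0.73, Crh at 0.86 ± 0.20 and Trh at 1.14 ± 0.64. On arrays 1 to 4 the ratios of Crh were 1.40, 0.72, 1.70 and -0.36. The median of the list rested on array 2: the medians on arrays 1 to 4 were 0.05, 2.87, 0.03 and -0.27. Without array 2 the ratio was above 0 in 8 of 15 hypothalamic markers, with a median of 0.004. Among the Cy3 samples without male 2 the median was 0.09, and among the Cy5 samples it was -0.01. The cortical markers were above 0 in 3 of 10, with a median of -0.38, Neurod6 at -0.96 ± 0.33 and Rgs9 at 0.46 ± 0.21. Without array 2 they were above 0 in 5 of 10, with a median of 0.03. The median was 0.05 among the Cy3 samples without male 2 and 0.27 among the Cy5 samples. The Cy5 samples still hold female 2 of array 2, which was the highest of them for 8 of the 10 cortical markers. The part of these cell populations in the members' ratios was not tested.

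**Figure D4:**
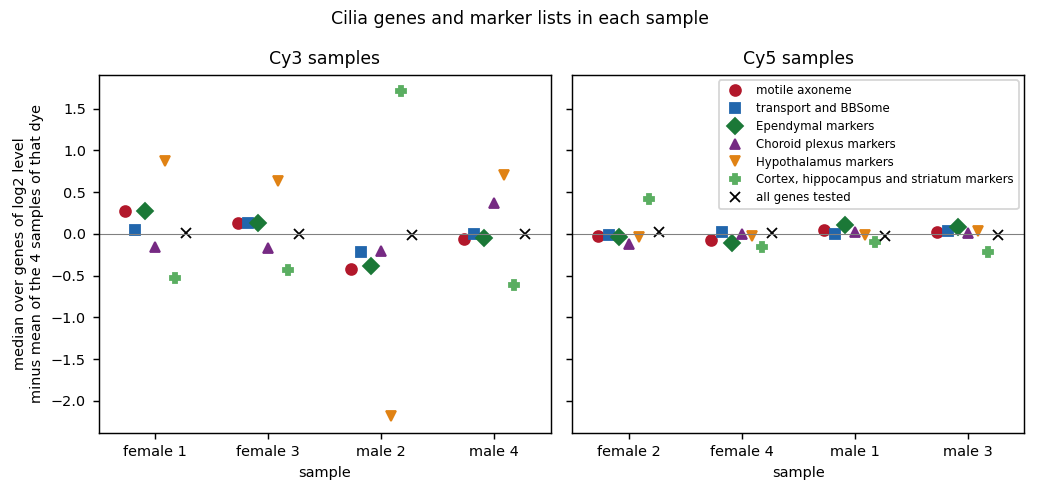
Median over genes of the log2 level minus the mean of the 4 samples of that dye (y axis), for motile axoneme and transport members, for marker lists and for all genes tested, in each sample (x axis; Cy3 left, Cy5 right). Motile axoneme members (-0.42) and ependymal markers (-0.38) are both low in male 2, hypothalamic markers are at -2.18 and cortical markers at 1.71 there, and all genes tested stay near 0.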

How the data were processed

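Total RNA was labelled with Cy3 or Cy5 and hybridised to two-colour arrays, whose scans were quantified by version 10.7.3.1 of Agilent Feature Extraction, per the submitters' processing notes. The deposited spot intensities are raw mean and median brightness with local background, per the file headers. Per the file headers, the scanner's log10 ratio is red over green. The deposited log2 value table equals log2 of median signal minus local background, less a constant per column (within 0.01 for 100% of values), so scale and centring are known. The median signal above background was 146 to 269.5 with Cy5 and 492.5 to 519 with Cy3, and 77.6 to 87% of spots were well above background. The number of arrays limits the precision.

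Intensities were corrected with normexp (offset 50, limma 3.58.1, R 4.3.3) and loess-normalised. Control spots were given no weight, 931 to 1096 outlier spots per array were dropped, and spots of a probe were averaged. A probe entered if more than 0.5 of its spots passed the scanner's flag for signal well above background in each of the 4 samples of at least 1 sex. On the log2 scale, limma modelled each array's female over male ratio with a gene-specific dye term, which leaves 2 residual degrees of freedom, and adjusted by Benjamini-Hochberg over 21995 probes. Log2 levels are channel intensities after quantile scaling of the average. No level is set against another probe's, although the summed levels of marker lists add intensities across probes. Dnai2 and Dnah3 lacked array 1 (an outlier spot), and their fits use 3 arrays. The 2 samples of an array share its number, so the ratio is the paired contrast. Correlations of deviations of same-numbered samples from their sex's mean were 0.61, 0.68, 0.46 and -0.08 over 14603 genes. The labels give 4 rats per sex.

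Member genes and lists were chosen with earlier results of these data known. Genes named are Foxj1, Dynlrb2 and Tmem212, the 8 members with the smallest p in each direction, the smallest p of each role, members whose probes differ in sign, and the 2 smallest p of each other list. Genes named beyond these were chosen after their values were seen. Probe positions are on rn4, and promoter sequences come from RefSeq (GRCr8). On simulated data, 14% of probes changed by 0.5 on the log2 scale and 64% of those changed by 1 were recovered over 30149 probes. The simulated noise was independent between probes, with residual spreads shuffled among them. It thus held no shift shared by the probes of a sample, as in male 2, and recovery on the real arrays was not tested. Alternatives were the dye term, the block, background correction, scaling, filters, the scanner ratio, the value table, a robust prior and each replicate left out. Comparisons within a dye were chosen after seeing the data.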

Additional observations from a re-analysis of the deposited data

Results flagged for a closer look

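In 3 of the 50 groups of 4 samples tested, 1 sample stood apart from the other 3, where chance gives about 1 group in 20. The brighter Ift52 probe read 12.62 in male 2 and 13.24 to 13.26 in the other males, so that the gap took 0.961 of the group's range. Spag7 read 13.06 in female 4 and 12.25 to 12.33 in the other females, a gap of 0.899 of the range. Both dyes are mixed in these groups, and the dye term of Spag7 was 0.65. Spag9 read 7.85 in female 4 and 7.75 to 7.77 in the other females, a gap of 0.847 of the range.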

How the results depend on the processing

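The number of arrays (4) limits the precision. No member passed an adjusted p under 0.05 in 14 of the 15 alternatives, and leaving out each replicate gave 0 to 4. The 4 calls, made without replicate 4, were Rsph9 (adjusted p = 0.0309, limma), Dnah11, Odf3b and the second Dynlrb2 probe, where 6.78% of all probes were called. Odf3b had a ratio of 0.50 there. The 12 probes at an unadjusted p under 0.05 (8.5% of all probes) became 3 without the dye term (2.9%), 3 with no replicate block in separate channels (7.76%), 4 with median centring (5.19%), 6 with the scanner's log ratio (8.05%), and 3 to 27 without 1 replicate (1.84% to 29.6%). With the authors' value table they became 3 of 54, 1 higher in females and 2 higher in males, against 10% of all probes. The cause was not tested. The motile axoneme median was 0.11 with the probes of a gene averaged, 0.11 with no filter on dim probes, -0.0556 among Cy5 samples and 0.08 to 0.24 without 1 replicate. The transport median was 0.0453 with median centring, 0.0012 with the value table, 0.20 among Cy3 and 0.0161 among Cy5 samples, and 0.06 to 0.15 without 1 replicate. Dnai1 turned to -0.0491 in the value table, and Foxj1 to -0.14 without replicate 1 and -0.25 without replicate 2, in a range up to 0.42 without replicate 4. Of the alternative values of all results, 422 kept direction and side of the threshold.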
